A study of Homo sapiens with 4 samples.

Results

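GAPDH, FTL, FTH1, ACTB, ACTG1, EEF1A1, EEF2, ENO1, TUBA1B and PKM are housekeeping genes that most human cell types transcribe at very high levels. They are 10 of the 20090 protein-coding genes compared on chromosomes 1 to 22 and X (GENCODE release 44 on GRCh37, the hg19 coordinates), and all 10 were found in the annotation by name. The list was given by name, and GAPDH and FTL were chosen by their widest SSRP1 peaks, which were very wide and met no FLI1 peak. For that pair the SSRP1 and FLI1 values are therefore a description of why the genes were chosen, and counts are also given for the other 8 genes. RNA was not analysed here, so their high transcription is background and was not measured.

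Chromatin was immunoprecipitated from the Ewing sarcoma line SK-N-MC with antibodies to SSRP1, FLI1 or acetylated lysine 27 of histone H3 (H3K27ac), and an input library served as the control for the authors' peak calling. The labels give 1 line in culture medium with serum, with no treatment and no altered genotype, and 1 library for each of the 3 targets. The deposited lists hold peak positions alone, with 19855 SSRP1, 36305 FLI1 and 37195 H3K27ac peaks of median width 403, 283 and 653 bp, and neither read depth nor peak height was analysed. With 1 library per target no difference has a replicate check, no p-value was computed, and every count below describes these libraries. As a check of the line's label, all 6 of a set of Ewing sarcoma marker genes had SSRP1, FLI1 and H3K27ac within 5 kb of the gene, against 2, 2 and 1 of 7 marker genes of other cell types.

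SSRP1 is a subunit, with SUPT16H, of the FACT complex, which removes and restores histones H2A and H2B as RNA polymerase II passes, and FACT is known to be found along the bodies of transcribed genes. H3K27ac marks active promoters and enhancers and usually lies around the start of a gene. In SK-N-MC the EWS-FLI1 fusion keeps the DNA-binding domain of FLI1, an ETS factor that binds cores such as CCGGAA and also runs of GGAA. The 10 genes serve 4 roles. FTL and FTH1 encode the light and heavy chains of ferritin, which stores iron. GAPDH, ENO1 and PKM encode enzymes of glycolysis. ACTB, ACTG1 and TUBA1B encode cytoplasmic actins and an alpha-tubulin. EEF1A1 and EEF2 encode elongation factors that bring aminoacyl-tRNA to the ribosome and move the ribosome along the mRNA.

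The 250 bases before the start of the canonical transcript are shown for 5 of the genes, because the 3 targets divided them differently there. Sequences are from GRCh37, on the strand of the gene, with CCGGAA or its reverse complement TTCCGG (the ETS core) and TATAAA (the TATA box) in capitals. H3K27ac covered all 250 bases at each of the 10 genes. The first 3 lay partly or wholly under FLI1, at FTH1 (chr11:61735107-61735356, minus strand, all 250 bases), EEF1A1 (chr6:74230756-74231005, minus strand, 156 bases) and ENO1 (chr1:8938746-8938995, minus strand, 215 bases). The other 2 had no base under FLI1: FTL (chr19:49468316-49468565, plus strand, 250 bases under SSRP1) and EEF2 (chr19:3985462-3985711, minus strand, 0 bases under SSRP1).
FTH1: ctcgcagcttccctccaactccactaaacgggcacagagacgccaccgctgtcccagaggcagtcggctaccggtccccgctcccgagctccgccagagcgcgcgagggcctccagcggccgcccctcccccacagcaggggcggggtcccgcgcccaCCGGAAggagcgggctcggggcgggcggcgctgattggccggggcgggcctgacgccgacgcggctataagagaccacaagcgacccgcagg
EEF1A1: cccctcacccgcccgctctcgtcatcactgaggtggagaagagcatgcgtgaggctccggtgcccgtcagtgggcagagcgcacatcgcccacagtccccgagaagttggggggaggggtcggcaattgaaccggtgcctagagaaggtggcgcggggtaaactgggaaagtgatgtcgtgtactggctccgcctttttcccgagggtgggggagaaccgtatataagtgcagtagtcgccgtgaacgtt
ENO1: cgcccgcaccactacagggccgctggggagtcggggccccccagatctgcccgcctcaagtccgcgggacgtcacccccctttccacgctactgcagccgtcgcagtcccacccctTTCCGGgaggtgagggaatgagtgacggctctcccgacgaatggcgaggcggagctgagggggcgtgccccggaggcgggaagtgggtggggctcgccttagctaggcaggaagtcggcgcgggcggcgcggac
FTL: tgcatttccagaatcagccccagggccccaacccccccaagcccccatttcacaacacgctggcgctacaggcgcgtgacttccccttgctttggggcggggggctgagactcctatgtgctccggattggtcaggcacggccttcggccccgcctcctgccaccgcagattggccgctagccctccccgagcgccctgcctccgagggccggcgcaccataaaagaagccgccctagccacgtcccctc
EEF2: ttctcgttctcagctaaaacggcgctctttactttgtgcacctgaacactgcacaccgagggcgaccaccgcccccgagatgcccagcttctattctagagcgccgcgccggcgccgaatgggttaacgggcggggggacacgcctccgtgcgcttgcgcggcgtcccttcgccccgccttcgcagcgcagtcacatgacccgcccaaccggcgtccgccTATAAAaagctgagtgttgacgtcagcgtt

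An ETS core stood in the promoters of FTH1, from 92 to 87 bases before the start (-92 to -87), and of ENO1 (-134 to -129). That is 2 of 10, where 19.3% of all 20090 promoters of this length held one on either strand. Neither letter string was found in the EEF1A1 window, although FLI1 covered 156 of its bases. TATAAA, searched with its reverse complement TTTATA, stood in 3 of 10 promoters, among them those of ACTB (from -29) and EEF2 (from -30), against 9.4% of all promoters. The CCAAT box (CCAAT or ATTGG) was found in 5 of 10, against 34.2%, and the GC box (GGGCGG or CCGCCC) in 8 of 10, against 58.7%. These are matches of letters, some of the GC boxes overlap each other, and the matches do not show that a factor was bound.

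All 10 genes had SSRP1 and H3K27ac between 5 kb upstream and 5 kb past the end of their annotated span, against 48.6% of all protein-coding genes for SSRP1 and 65.8% for H3K27ac. FLI1 lay in the window of 8 of 10, against 54.0% of all genes. Without GAPDH and FTL the counts were 8 of 8 for SSRP1, 8 of 8 for H3K27ac and 7 of 8 for FLI1. The windows of all 10 genes held 52 SSRP1 peaks, 16 FLI1 peaks and 34 H3K27ac peaks. FTL and TUBA1B were the pair with SSRP1 and H3K27ac and no FLI1, a combination found at 10.2% of all genes and 19.6% of the narrower set defined next. FTL was chosen for a wide SSRP1 peak without FLI1, so its place in that pair follows in part from the choice. GAPDH had 3 FLI1 peaks in its window, none of them on its widest SSRP1 peak. FLI1 did meet its narrower SSRP1 peaks, of 1336 and 876 bp. A narrower reference set was also used, here called acetylated genes of like length. It holds the 6943 genes with H3K27ac in the window and a canonical transcript within the range of the 10 genes (1571 to 32162 bp). Only the range was matched, not the lengths within it, so length was not held equal. Of that set 65.4% had SSRP1 and 59.6% had FLI1 in the window.

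**Figure D1:**
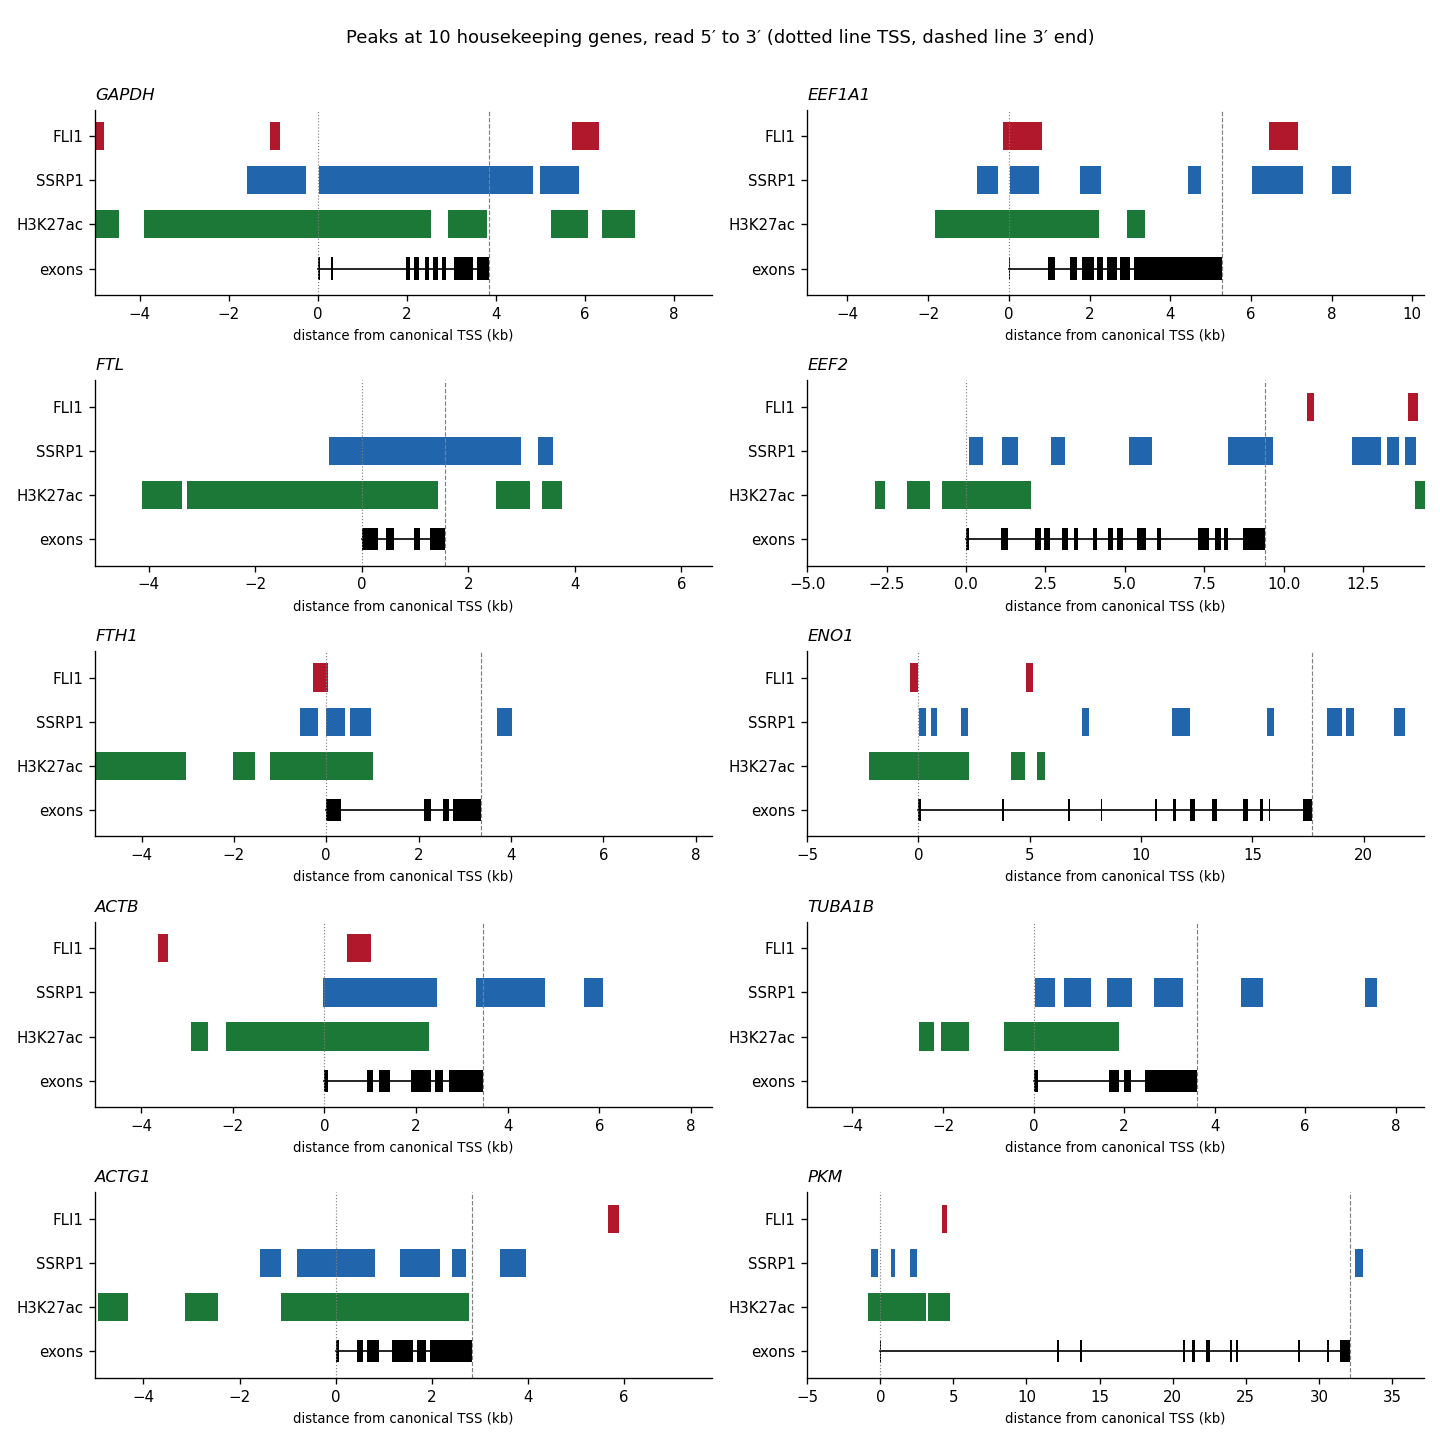
Peaks along each of the 10 genes, with distance from the canonical start of transcription in kb on the horizontal axis, drawn in the direction of transcription, and 1 row of bars each for FLI1, SSRP1, H3K27ac and the exons of the canonical transcript. SSRP1 bars lie past the canonical 3′ end (dashed line) of every gene and H3K27ac bars there at 3 of 10, and peaks over 5 kb from the transcript, as at ACTB and ACTG1, are outside the panels.

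Among the ferritin genes, SSRP1 covered all 1571 bp of FTL (chr19:49468566-49470136, plus strand). A single peak of 3603 bp (49467949 to 49471551) ran from -617 bp, counted from its start, to 1415 bp past its end, and a second of 282 bp lay further downstream. At FTH1 (annotated span chr11:61727190-61735106, minus strand) SSRP1 had 4 peaks of 332 to 444 bp, 2 of them inside the transcript, and covered 25.1% of the 3350 bp canonical transcript. The ferritin genes thus had very different SSRP1 coverage, with the heavy chain gene covered by narrow peaks near its start.

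Of the glycolytic genes, GAPDH (chr12:6643678-6647540, plus strand), which makes 1,3-bisphosphoglycerate, had 99.5% of its 3855 bp canonical transcript under SSRP1. One peak of 4817 bp (6643703 to 6648519) began 20 bp after the start and ended 982 bp past the 3′ end. ENO1 (chr1:8921059-8939249, minus strand), the enolase gene, had 9 SSRP1 peaks of 282 to 778 bp, and the 6 inside the transcript covered 12.7% of 17687 bp. PKM (chr15:72491370-72524160, minus strand), the pyruvate kinase gene and the longest canonical transcript at 32162 bp, had 4 SSRP1 peaks, 2 of them inside, and 2.36% of its transcript covered. Glycolytic genes therefore spanned nearly the whole range.

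The actin genes were close to each other. SSRP1 covered 75.4% of the 3454 bp of ACTB (annotated span chr7:5566040-5603533, minus strand) and 68.8% of the 2829 bp of ACTG1 (chr17:79476439-79490873, minus strand). Their widest peaks, of 2480 and 1640 bp, lay over the start. TUBA1B (chr12:49521565-49525180, minus strand) had 61.2% of 3614 bp covered by 4 separate peaks of 436 to 630 bp.

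The elongation factor genes had moderate coverage. SSRP1 lay on 35.2% of the 9408 bp of EEF2 (chr19:3976054-3985461, minus strand), with a 1430 bp peak over its 3′ end. EEF1A1 (annotated span chr6:74199031-74235310, minus strand) had 29.2% of 5283 bp covered, and its widest SSRP1 peak, of 1265 bp, lay past the 3′ end. Its annotated span, like those of ACTB, ACTG1 and FTH1, is stretched by transcripts that start or end far outside the canonical one.

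The median share of the canonical transcript under SSRP1 was 48.2% over the 10 genes and 32.2% without GAPDH and FTL, against 0% over all genes and 0% over the acetylated genes of like length. The means were 50.9% over the 10 genes, 2.25% over all genes and 4.61% over the acetylated set. Over the annotated span the median of the 10 genes was 20.1%, since the spans of FTH1, ACTB, ACTG1 and EEF1A1 are much longer than their canonical transcripts. Without GAPDH and FTL that median was 13.6%, and over all genes it was 0% (mean 2.22%). At least 25% of the canonical transcript was covered in 8 of 10 genes (6 of 8 without GAPDH and FTL), against 1.98% of all genes and 4.18% of the acetylated set, a threshold chosen after the peaks were seen. On the annotated span 5 of 10 reached it (3 of 8 without that pair), and no share over all genes is given for that count. At least 50% was covered in 5 of 10 (3 of 8 without that pair), against 0.806% and 1.40%. On the annotated span it was 3 of 10 (1 of 8 without that pair), against 0.692% of all genes. PKM, at 2.36%, had more SSRP1 than 84.2% of all genes, ENO1 more than 95.7%, and the other 8 more than 98.0% to 99.9%. Coverage was lower in the longer transcripts, with a Spearman rho of -0.7 between canonical length and share over the 10 genes, given as a description of genes that share 1 library. The part of length in the differences from the acetylated set was not tested.

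**Figure D2:**
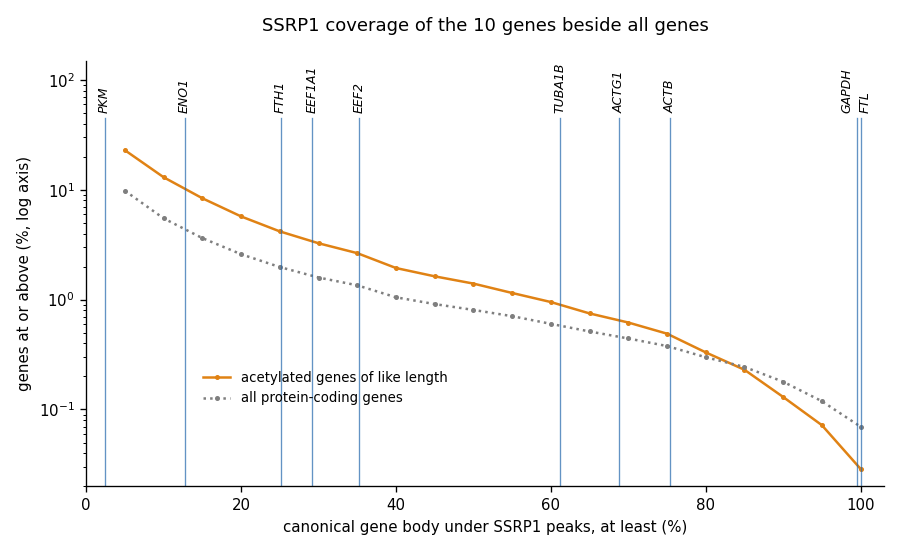
Percentage of genes (log axis) with at least the share of the canonical transcript on the horizontal axis under SSRP1, for all protein-coding genes (dotted) and for acetylated genes of like length (solid), with a vertical line at each of the 10 genes. At 25% the curves stand at 1.98% and 4.18%, and 8 of the 10 lines lie at or above that share.

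Width set GAPDH and FTL apart, as the choice of the pair requires: their widest peaks ranked 6 and 14 among the 19855 SSRP1 peaks. The ranks of the widest SSRP1 peak were 66 at ACTB, 305 at ACTG1, 458 at EEF2 and 703 at EEF1A1. TUBA1B (4232), PKM (5985), ENO1 (2630) and FTH1 (8394) had no unusually wide peak, and at TUBA1B and ENO1 the coverage came from several narrow ones. The wide GAPDH peak carried 7 summits and that of FTL 6, as counted by repeated lines of 1 interval, and 10 SSRP1 peaks in all had at least 7 and 24 at least 6.

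At the start of transcription 4 genes (GAPDH, EEF1A1, FTH1, PKM) had SSRP1 on both sides of an uncovered start. The canonical start lay under SSRP1 in 3 of 10 genes (FTL, ACTB, ACTG1) and in 2 of 8 without GAPDH and FTL. It did so in 14.3% of all genes and 19.5% of the acetylated set. The start lay under H3K27ac in 10 of 10, against 48.1% and 73.7%. All 10 had SSRP1 within 500 bp of the start (8 of 8 without GAPDH and FTL), against 29.3% and 40.4%. Among all genes with SSRP1 that close, 48.8% had the start itself covered. In 6 of the 7 other genes the next SSRP1 peak began within 100 bp downstream of the start, at 3 bp in FTH1, 6 bp in ENO1, 20 bp in GAPDH, 32 bp in TUBA1B, 36 bp in EEF1A1 and 81 bp in EEF2. PKM was the exception, with 721 bp. Upstream, SSRP1 ended 264 bp before the start of GAPDH, 266 bp before EEF1A1, 169 bp before FTH1 and 171 bp before PKM, while EEF2, ENO1 and TUBA1B had no upstream SSRP1 peak in their windows. The GAPDH, EEF1A1, EEF2, ENO1 and TUBA1B promoters of 250 bases thus had 0 bases under SSRP1 and 250 under H3K27ac. With any start of an annotated basic transcript in place of the canonical one, 7 of 10 genes had a start under SSRP1. No share over all genes is given for that count, for SSRP1 on both sides of the start or for the distances to the next peak. These counts therefore describe the 10 genes alone.

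H3K27ac covered a median of 51.3% of the canonical transcripts (mean 53.1%), against 0.965% over all genes and 6.51% over the acetylated genes of like length. It ranged from 14.4% in PKM to 98.3% in ACTG1. At least 50% was covered in 6 of 10 genes (4 of 8 without GAPDH and FTL), against 2.80% of all genes and 5.72% of the acetylated set. On the annotated span the count was 3 of 10, against 2.68% of all genes. The 2 targets were placed differently within these 10 genes. Split at its midpoint, the canonical transcript had a median of 10.3% of its 3′ part and 92.3% of its 5′ part under H3K27ac, with more in the 5′ part in 10 of 10 genes. For SSRP1 the medians were 45.8% of the 3′ part and 56.8% of the 5′ part. It had more in the 3′ part in 3 genes, more in the 5′ part in 6 and an equal share in 1. GAPDH is among those 3 and FTL is that 1, and both were chosen for wide SSRP1 peaks. Taken gene by gene, the median of the 3′ minus the 5′ share was -3.04 points for SSRP1 and -40.0 points for H3K27ac. Without GAPDH and FTL it was -8.15 and -51.5 points. No share over all genes is given for these counts and differences. In the 13203 other genes with H3K27ac in the window, mean coverage also fell from the first to the last zone of the transcript. It fell from 47.6% to 5.19% for H3K27ac and from 13.7% to 2.94% for SSRP1. SSRP1 covered more of the canonical transcript than H3K27ac did in GAPDH, FTL, ACTB, EEF2 and TUBA1B, 5 of 10 (3 of 8 without GAPDH and FTL), against 8.14% of all genes and 7.52% of the acetylated set.

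**Figure D3:**
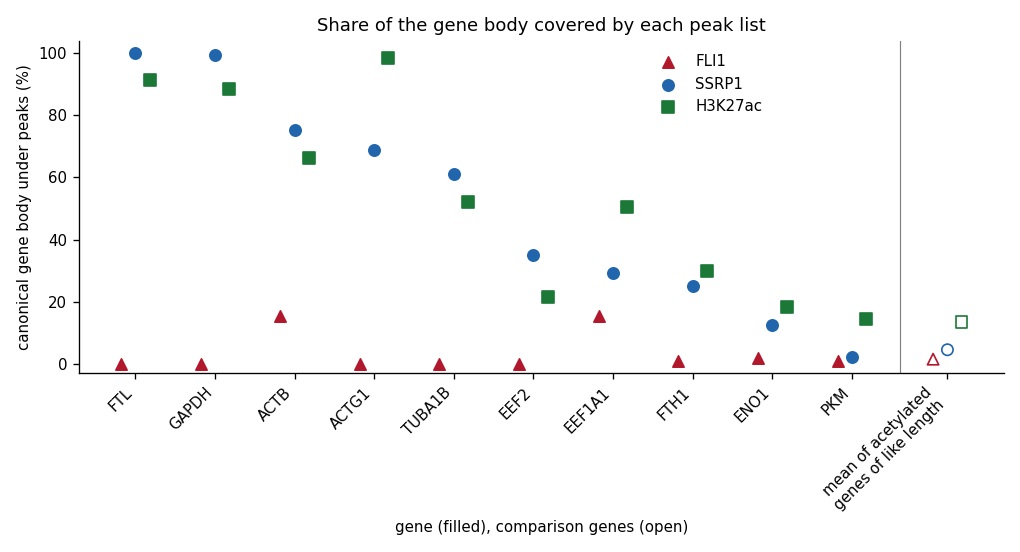
Share of the canonical transcript under SSRP1 (circles), FLI1 (triangles) and H3K27ac (squares) in each of the 10 genes, ordered by SSRP1, with open symbols for the mean of the acetylated genes of like length. SSRP1 covers all of FTL and 2.36% of PKM, and FLI1 does not pass 15.6% in any of the 10.

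Past the 3′ end the targets parted further, a comparison added after the peaks were seen. SSRP1 lay in the first kb past the canonical 3′ end of 10 of 10 genes, against 6.45% of all genes and 13.0% of the acetylated set. The H3K27ac count there was 1 of 10 (FTL), against 6.91% of all genes and 13.7% of the acetylated set, and the FLI1 count 0 of 10, against 3.79% and 5.89%. Within 5 kb of the end SSRP1 lay at 10 of 10 genes, against 14.5% of all genes and 26.8% of the acetylated set, H3K27ac at 3 of 10 (GAPDH, FTL, EEF2), against 15.0% and 29.6%, and FLI1 at 4 of 10 (GAPDH, ACTG1, EEF1A1, EEF2), against 12.3% and 18.3%. Without GAPDH and FTL, whose wide peaks reach past their ends, those 5 kb held SSRP1 in 8 of 8 genes, H3K27ac in 1 of 8 and FLI1 in 3 of 8. The first kb held SSRP1 in 8 of 8 of these genes and H3K27ac in 0 of 8. SSRP1 covered a mean of 51.8% of that kb in the 10 genes, 40.0% in the 8 genes without that pair and 4.29% in the 13203 other genes with H3K27ac in the window. From the first to the fifth kb the mean SSRP1 coverage of the 10 genes was 51.8%, 41.5%, 9.68%, 16.4% and 7.49%, and from 5001 to 10000 bp past the end it was 0%, against 1.37% in all other genes. Any SSRP1 peak was found in that last interval at 0 of 10 genes, against 10.3% of all other genes. Within 5 kb of the end SSRP1 covered 12693 bp over the 10 genes, of which 1349 bp (10.6%) were under H3K27ac, and in 7 genes none were. Without GAPDH and FTL the numbers were 9138 bp and 44 bp.

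SSRP1 covered 1909 bp of the 5 kb past EEF2, 1858 bp past GAPDH, 1768 bp past ACTB, 1730 bp past EEF1A1 and 1697 bp past FTL. The other genes had 1543 bp (ENO1), 769 bp (TUBA1B), 555 bp (ACTG1), 532 bp (PKM) and 332 bp (FTH1). ENO1 and PKM, with little SSRP1 within the transcript, thus still had it downstream. The furthest SSRP1 base not close to another gene's start lay between 683 bp (FTH1) and 4185 bp (ENO1) past the end. At FTH1 and EEF1A1 the SSRP1 peaks past the canonical 3′ end lie inside the annotated span of the same gene, which runs beyond the canonical transcript. Some of the peaks past the 3′ ends have a second gene nearby: those past GAPDH, FTL and FTH1 overlap IFFO1, GYS1 and BEST1, the PKM peak (72490509 to 72491040) lies within 1 kb of the start of GRAMD2A, and 2 of those past EEF2 lie near the start of DAPK3. With peaks within 1 kb of another gene's start left out, 9 of 10 genes (7 of 8 without GAPDH and FTL) had SSRP1 within 5 kb, against 9.88% of all genes and 17.6% of the acetylated set. H3K27ac then lay there in 2 of 10, against 7.15% and 13.7%, and FLI1 in 4 of 10, against 9.40% and 12.3%.

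**Figure D4:**
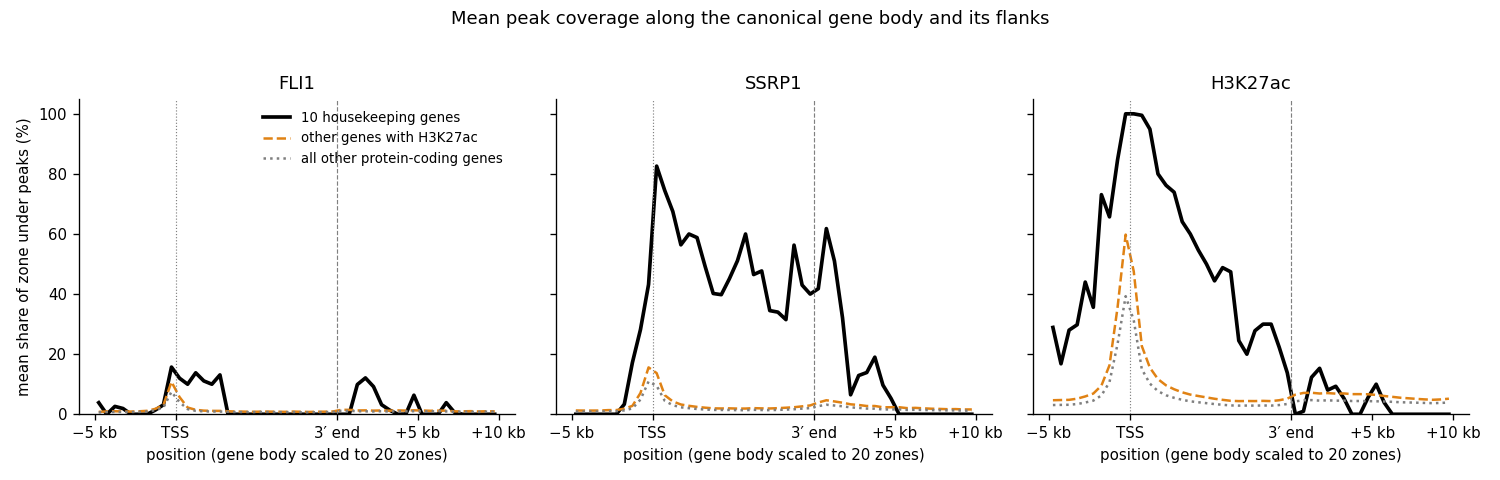
Mean percentage of bases under each target along the gene, from upstream of the start through zones of the canonical transcript to 10 kb past the 3′ end, for the 10 genes and for other genes with H3K27ac in the window. In the 10 genes H3K27ac covers every base at the start and 13.8% in the last zone of the transcript. SSRP1 stands at 82.6% and 40.0% in the same zones and at 51.8% in the first kb past the end. These values include GAPDH and FTL, chosen for wide SSRP1 peaks that cover their last zone. Without that pair SSRP1 stands at 40.0% in the first kb past the end.

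Of the SSRP1 bases in the windows, 39354 in all, 53.0% lay under H3K27ac, from 19.1% at EEF2 and 23.9% at ENO1 to 78.9% at FTH1. By peak, 28 of 52 SSRP1 peaks met H3K27ac and 9 of 52 met FLI1, where 61.1% and 33.0% of all SSRP1 peaks did. Exons of the canonical transcripts had 41.8% of their pooled bases under SSRP1 and introns 20.0%. Gene by gene that order did not hold: the exon share was the higher in 4 of 10 genes, and ACTB had 59.4% of its exon bases and 93.2% of its intron bases covered.

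FLI1 covered little of the transcripts beside SSRP1 and H3K27ac, with a median canonical share of 0.505% and at most 15.6%. Without GAPDH and FTL the median was 1.02%, against 0% over all genes and 0% over the acetylated set. The mean FLI1 share was 3.5% over the 10 genes, 0.988% over all genes and 1.58% over the acetylated set. The canonical start lay under FLI1 in 2 of 10 genes (FTH1, EEF1A1), against 9.80% of all genes and 14.0% of the acetylated set. It lay within 500 bp of FLI1 in 4 of 10, against 19.0% and 26.3%. Without GAPDH and FTL those counts were 2 of 8 and 4 of 8. EEF1A1 had the widest, a 978 bp peak from 156 bp before to 821 bp after its start, which ranked 418 of 36305. FTH1 had a peak from -291 to 33, ENO1 one from -374 to -36 and ACTB one inside the gene from 488 to 1023, all in bp from the start. At GAPDH the FLI1 peaks ended at -4808 and -844 bp from the start or began 1848 bp past the end, so none met the transcript. EEF1A1 also had a 722 bp FLI1 peak past its canonical 3′ end but inside its annotated span (74223582 to 74224303). That peak lay wholly within SSRP1 and met no H3K27ac. Of the 16 FLI1 peaks, 8 met SSRP1 and 10 met H3K27ac, where 18.1% and 28.9% of all FLI1 peaks did. An ETS core was present in 5 of 16, against 11.0% of all FLI1 peaks, and a run of at least 4 GGAA in 0 of 16, against 2.69%.

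Many of these genes have processed pseudogenes, intronless copies of their mRNA elsewhere in the genome, and reads from exons can match a copy. GENCODE lists 185 of them by name, 62 for GAPDH, 44 for EEF1A1, 23 for FTH1, 19 for ACTG1, 16 for FTL, 12 for ACTB, 5 for PKM and 4 for ENO1. SSRP1 met 0 of 185, against 0.737% of all 10443 processed pseudogenes, FLI1 met 7, against 2.70%, and H3K27ac met 6, against 1.81%. The treatment of reads that match several places is not stated by the labels, and their part in the coverage of exons was not tested.

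Other genes of the same pathways were looked at from lists chosen with earlier results known. Of 51 other genes on lists of glycolysis, translation elongation, the cytoskeleton, iron handling and laboratory reference genes, 33 had SSRP1, 29 FLI1 and 48 H3K27ac in the window, where 48.6%, 54.0% and 65.8% of all genes did. Their median canonical SSRP1 share was 1.19%, and 6 of 51 reached 25%: TMSB10 (69.1%), TUBB (63.2%), MYL6 (55.7%), TUBB4B (51.5%), CFL1 (38.2%) and TPI1 (35.2%). The first 5 of these are cytoskeletal genes, and TPI1 encodes the glycolytic triose phosphate isomerase. With the members counted in, SSRP1 lay in the window of 13 of 17 glycolysis genes, 5 of 8 elongation genes, 12 of 14 cytoskeletal genes, 5 of 8 iron genes and 9 of 15 reference genes. FLI1 lay in the window of 13, 4, 9, 5 and 7 of them, and H3K27ac of 16, 7, 13, 8 and 15. Of the acetylated genes of like length, 65.4% had SSRP1 and 59.6% had FLI1 in the window, and the list counts lay on both sides of these shares. The lists are not matched to that set, since some of their genes, such as HK1, have longer canonical transcripts. SSRP1 past the 3′ end, not close to another gene's start, was found at 12 of 51, where 9.88% of all genes and 17.6% of the acetylated set had it. Among the reference genes PPIA (20.8%) and RPLP0 (20.1%) were covered well above the median of the 51. Of the glycolysis genes, 4 had no SSRP1 peak in the window: HK1 and PGAM1 on chromosome 10, PGK1 on chromosome X and GPI on chromosome 19, all but HK1 with H3K27ac. SSRP1 peaks numbered 1.57, 1.06 and 26.7 per Mb on chromosomes 10, X and 19, and PFKP, also on chromosome 10, did have SSRP1.

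**Figure D5:**
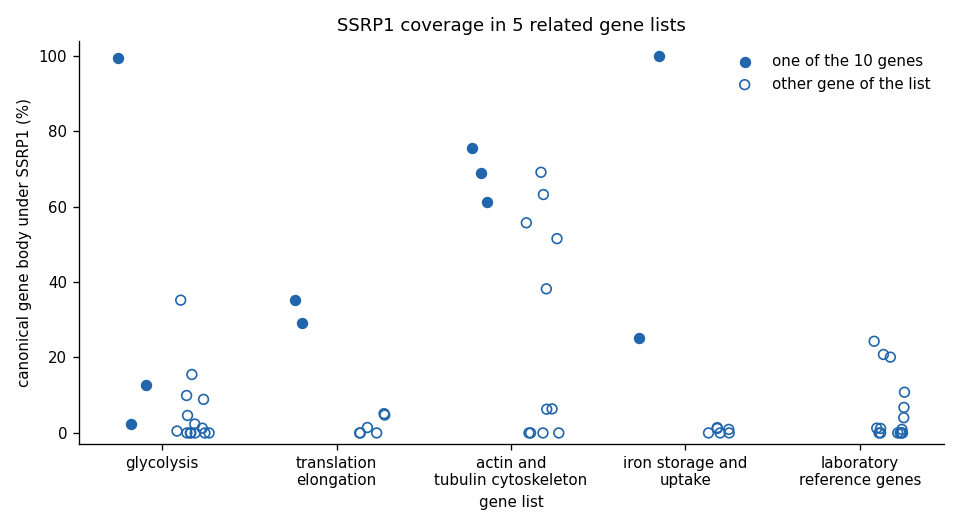
Share of the canonical transcript under SSRP1 for the genes of 5 related lists, with filled circles for the 10 genes and open circles for the others. Of the 51 other genes, 6 reach 25%, and 5 of these are in the cytoskeletal list.

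Other genes had a similar pattern. Among 4294 protein-coding genes outside the 10 with H3K27ac and no FLI1 in the window and an annotated body of at least 2 kb, the 10 with the largest share of the body under SSRP1 had 55.2% to 90.6% covered. They included SLC25A1 (90.6%), MFSD3 (86.6%), RPL10A (70.6%), APRT (70.3%), ZIC2 (68.8%), DDIT4 (67.5%), PAQR4 (60.9%), GADD45GIP1 (56.7%) and SLC35B2 (55.2%). RPL10A encodes a ribosomal protein and SLC25A1 the mitochondrial citrate carrier. Past the 3′ end, 8 of these 10 had SSRP1 not close to another gene's start. That held for 9.88% of all genes, 17.6% of the acetylated set and 18.6% of genes with SSRP1 in the canonical transcript. The canonical start was covered in 3 of 10, against 14.3% of all genes and 19.5% of the acetylated set. These other genes were ranked on SSRP1 coverage, so their shares and these counts are a description. The limits leave out genes with FLI1 in the window, and of the 10 housekeeping genes only TUBA1B meets them.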

How the data were processed

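ChIP-seq libraries of SK-N-MC cells for SSRP1, FLI1 and H3K27ac (1 each) and an input were grouped by sample title. Per the series' design text, the authors digested chromatin with micrococcal nuclease before sonication, aligned reads to hg19 with Bowtie2 and called peaks with MACS2 against input at a q-value threshold of 0.05. MACS2 was version 2.2.7.1, per the submitters' processing notes. Nuclease digestion favours nucleosome-bound fragments. The deposited lists give positions in bp without a score, so read depth is unknown and the planned comparison by peak strength used width instead. Peaks were called by the authors in each library separately.

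Lines that repeat an interval were counted once (23078 SSRP1 lines gave 19955 peaks, 38324 FLI1 lines 36539 and 62198 H3K27ac lines 37271), and peaks on chromosomes 1 to 22 and X were used, which left 19855, 36305 and 37195. Genes, canonical transcripts (tagged for 98.6% of genes) and processed pseudogenes came from GENCODE release 44 on GRCh37. A peak counted when 1 bp met the region. The gene body was the annotated span, with the canonical transcript as the alternative. Coverage of gene bodies was tested on simulated data, which returned the planted values for 2000 of 2000 genes. The assignment of peaks to windows, starts and 3′ ends was not part of that count. Python 3.11.15, pandas 2.3.3, numpy 2.4.6 and samtools 1.23.1 were used.

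The members and lists were chosen with earlier results of these data known. Named genes were the 10 members, their neighbours, the related lists and 10 other genes. These others had the largest SSRP1 body share among genes with H3K27ac, no FLI1 in the window and a body of at least 2 kb. Of the members, 8 (GAPDH among them) have FLI1 in the window and FTL spans 1571 bp, so only TUBA1B meets these limits. PECAM1 was not matched among the marker genes. Values of some single genes and 1 promoter sequence are not reported here. Alternatives were windows of 1 and 10 kb, a minimum overlap of 20%, only the wider peaks, the other gene body or start, and the set without GAPDH and FTL. Peak signal was not analysed here, and no test was made.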

Additional observations from a re-analysis of the deposited data

How the results depend on the processing

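Under the alternatives 107 values kept their direction within 5 percentage points (shares) or 1.5 times (counts) of the main value, 9 moved further and 1 reversed. All 10 genes kept SSRP1 and H3K27ac in windows of 1, 5 and 10 kb. With only peaks at or above the median width of their list, the median SSRP1 share of the 3′ part minus that of the 5′ part of the annotated span reversed to 0.647 points, against -0.666 with all peaks. Under the same setting 2 genes had FLI1 past the 3′ end (4 with all peaks), 1 had H3K27ac there (2 with all peaks) and 4 laboratory reference genes had FLI1 in the window (7 with all peaks). On the canonical transcript the median shares were 48.2% for SSRP1 and 51.3% for H3K27ac, against 20.1% and 21.1% on the annotated span, which is stretched most at FTH1, ACTB, ACTG1 and EEF1A1. On the annotated span 5 genes had at least 25% under SSRP1, against 8 on the canonical transcript. Without GAPDH and FTL the median SSRP1 share of the annotated span was 13.6%, and 0 genes had H3K27ac past the 3′ end (peaks close to another gene's start left out, as for the counts past the end above). With any annotated start, 7 genes had one under SSRP1, against 3. The causes of the changes with peak width were not tested. No paired analysis was possible because each target has 1 library. Depth cannot be judged from positions alone, so an absent peak means only that none was called.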

Other observations

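Far upstream, within the annotated span of ACTB but over 31 kb before its canonical start, SSRP1 (5602102 to 5602795), FLI1 (5601824 to 5602239) and H3K27ac (5601788 to 5602457) had peaks that overlapped each other on chromosome 7. FTH1 had a 4750 bp H3K27ac peak from -7797 to -3048 bp from its start that held no SSRP1 or FLI1 peak inside its 5 kb window. At ENO1 a 334 bp FLI1 peak inside the gene (8933590 to 8933923) fell between 2 H3K27ac peaks and met neither of them. These regions were noticed after their values were seen.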
